A study of Drosophila melanogaster with 4 samples.

Results

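The subject is the set of places on the Y chromosome of male Drosophila melanogaster embryos where peaks of the RNA helicase Maleless (MLE) were called. All peaks on the Y were taken from 4 peak lists, repeated intervals were collapsed, and peaks that shared at least 1 base were merged. This gave 202 Y regions, out of 42358 regions on all chromosomes. The regions were built from 452 Y peaks, out of 92103 peaks in all.

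The peaks came from CUT&RUN, in which a nuclease fused to protein A cuts the DNA around an antibody bound to chromatin. A rat antibody against MLE was used on whole embryos. The 4 groups, with 1 list each, were embryos of 0-2 h with the control or the CLAMP RNAi (called the early control and the early knockdown) and embryos of 2-4 h with either (the late control and the late knockdown). Control mothers were MTD-GAL4>GFPRNAi and the others MTD-GAL4>CLAMPRNAi, from UAS-CLAMPRNAi[val22]. All mothers thus carried MTD-GAL4, a driver of the female germline, so that RNAi acted on what the mother supplied to the egg. Crosses to meiotic drive stocks gave embryos of 1 sex in all groups, and 1 of these stocks lists the element Dp(2:y)CB25-4, a Y with a piece of chromosome 2. Whether the embryos carried that Y is not stated, and sequence of that piece would be placed on chromosome 2. Each library was made from embryos of several layings. Titles of both older samples name them pre-MZT, whereas the series design places that age after the maternal to zygotic transition (MZT).

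MLE unwinds the roX RNAs and is part of the dosage compensation complex, which coats the single male X and raises its transcription. CLAMP is a zinc finger protein that binds GA repeats and brings the complex to the X. The Y of Drosophila is largely heterochromatin made of satellites and transposons. It carries few genes, most of them known for roles in the testis, and several of these have introns of extreme length.

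The Y held 122 peaks in the early control, 97 in the early knockdown, 123 in the late control and 110 in the late knockdown. Peaks were sparse on the Y. It had 33.3, 26.4, 33.5 and 30.0 peaks per Mb in the same order, where the length of a chromosome was its last coordinate in the lists or the gene table. That length takes in any gaps of the assembly and repeated sequence, and their part in these densities was not tested. In the early control the X had 282.7 peaks per Mb, the large autosome arms had from 184.6 to 205.6, and the small heterochromatic chromosome 4 had 135.2. Y peaks covered 1.21% of the Y in the early control, 1.01% in the early knockdown, 1.32% in the late control and 0.931% in the late knockdown. The share of each list on the Y was 0.430% (exact 95% interval 0.357% to 0.513%) in the early control and 0.429% (0.348% to 0.524%) in the early knockdown. It was 0.489% (0.407% to 0.583%) in the late control and 0.688% (0.565% to 0.828%) in the late knockdown, which is the shortest list. Fewer peaks were listed on the Y with CLAMP RNAi than in the control at both ages, by 25 at 0-2 h and by 13 at 2-4 h. With each list cut to its highest scores, to the length of the shortest, the direction turned at 2-4 h, where the late knockdown had 110 Y peaks and the late control 97. At 0-2 h the knockdown then had 80 and the control 85. With 1 list per group these differences have no replicate check, and in whole embryos fewer bound cells and less binding per cell cannot be told apart.

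The lists differed as a whole, and this bears on every comparison below. They held 28368, 22586, 25149 and 16000 peaks in the order given above. The score is the authors' own number for a peak, at least 13 in every list, and serves here only to rank peaks within a list. In the late knockdown, 4 score values held 50% of the peaks, against 12, 16 and 24 values in the early control, the early knockdown and the late control, so weak peaks were graded most coarsely there. The design text gives an average depth over the samples, the depth of each library is unknown, and its part in the results was not tested. A yeast spike-in was added, and its use in these lists is not stated in the sources used here.

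Though sparse, the Y peaks ranked above the middle of their lists. The score percentile of a peak is the share of its own list with the same or a lower score. Its median over Y peaks was 66.1 in the early control, 65.7 in the early knockdown, 68.8 in the late control and 61.9 in the late knockdown. Peaks of the other chromosomes had medians of 50.0, 51.7, 51.2 and 61.9. The Y thus stood above the rest in each list except the late knockdown, where ties placed both medians at the same score. The top 10% of scores took in 17.2% of Y peaks in the early control, 24.7% in the early knockdown, 20.3% in the late control and 21.8% in the late knockdown, against 9.94% to 10.1% of the peaks elsewhere. In the top 1% lay 1, 6, 1 and 3 Y peaks.

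Merging gave regions from 200 to 1640 bp wide, with a median of 374 bp. Presence ranged from 1 to 4 lists. Of the 202 regions, 54 held a peak of each list, 26 of any 3, 34 of any 2 and 88 of 1 list. The share common to the 4 lists was 26.7% (95% exact interval 20.8% to 33.4%), against 19.9% of regions over all chromosomes. It was 27.9% on the X, 17.6% on the large autosome arms and 12.6% on chromosome 4. Against all other chromosomes the Y share was 6.90 points higher (Newcombe 95% interval 1.26 to 13.4). Intervals here cover counting error over regions or peaks and compare lists, not embryos.

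Regions held by both lists of 1 genotype alone had shares on the Y near those over all chromosomes. Both control lists and neither CLAMP RNAi list held 12 Y regions, or 5.94%, against 6.38% of all regions. Both CLAMP RNAi lists and neither control list held 2 Y regions, or 0.990%, against 0.881% of all regions. Both 0-2 h lists alone held 3 regions, or 1.49%, against 3.1% of all regions, and both 2-4 h lists alone held 8, or 3.96%, against 1.27%. The last was 2.70 points above the other chromosomes (0.755 to 6.36).

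**Figure D1:**
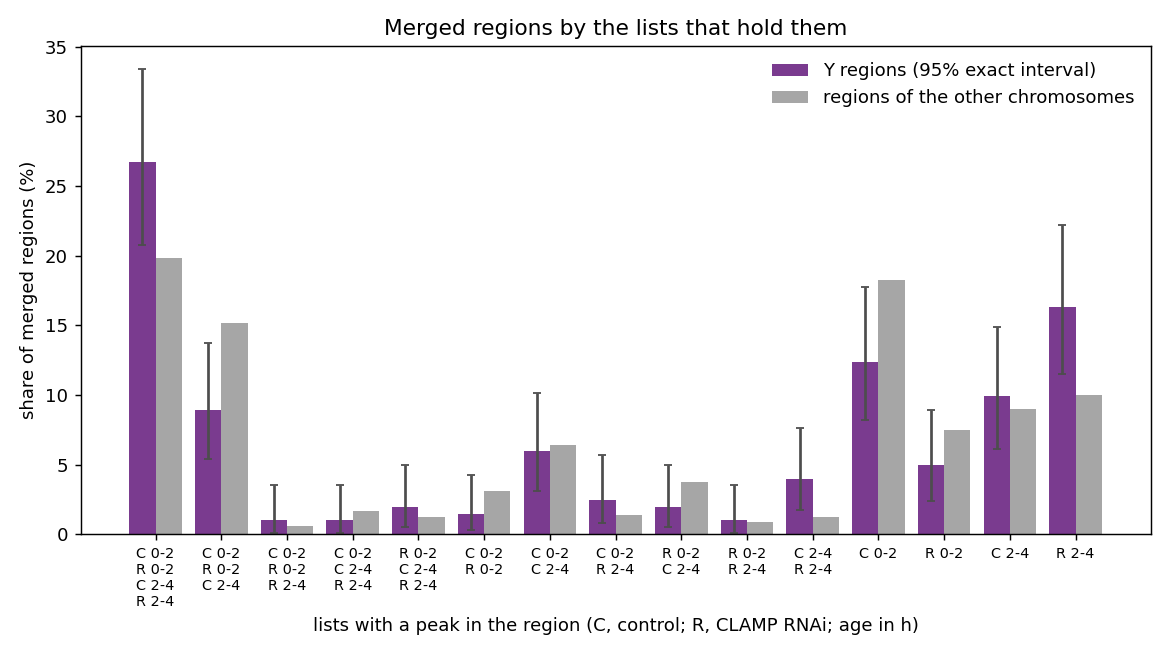
Share of merged regions (y axis, percent) held by each combination of lists (x axis), for the Y with exact 95% intervals and for all other chromosomes together. The Y has a larger share than the others together in all 4 lists (26.7%) and in the late knockdown alone (16.3%). It has a smaller share in the 3 lists without the late knockdown (8.91%). Chromosome 4, not drawn apart, has 17.7% in the late knockdown alone and 9.55% in those 3 lists. The X, not drawn apart, has 27.9% in all 4 lists.

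The late knockdown alone held 33, which is 16.3% of Y regions against 10.1% of all regions, and 6.31 points (1.84 to 12.03) above the other chromosomes together. On chromosome 4 this share was 17.7%, above that of the Y. Of these 33, 18 had the lowest width of 200 bp, and their median score was 24, with a median score percentile of 41.3. The early control alone held 25 regions, or 12.4% against 18.2% of all regions, with scores of 16 to 87. Its share was 12.9% on chromosome 4 and 14.4% on the X. The early knockdown alone held 10, or 4.95% against 7.5%, with scores of 23 to 344. The late control alone held 20, or 9.90% against 8.96%, with scores of 13 to 432. The 54 regions of the 4 lists, by contrast, had a median score percentile of 83.0 to 87.0 in each list.

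**Figure D2:**
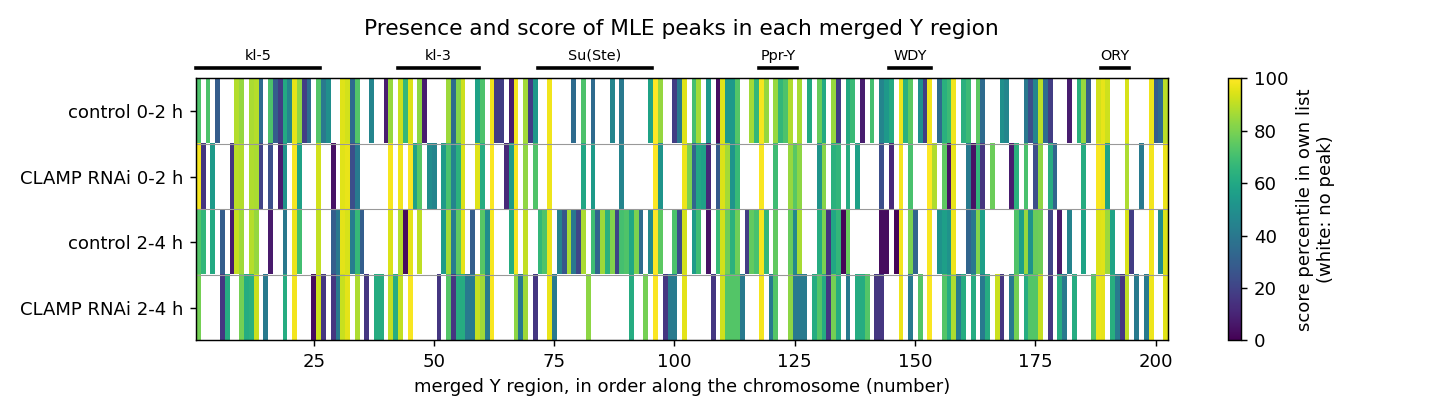
Each column is 1 of the 202 merged Y regions in order along the chromosome (x axis, region number) and each row 1 list; colour gives the score percentile within the list, from 0 to 100, and white means no peak. Bars mark regions in 5 genes and in the first Su(Ste) block with its flanks. Bright columns run through the 4 rows at many places, and the Su(Ste) block is filled in the late control and mostly white in the other lists.

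The strongest of the Y regions lay at 1076756 to 1077136, and all coordinates are of build dm6. It is 381 bp wide and lies outside the annotated genes, 36344 bp from the closest, a copy of the RNA gene family Su(Ste). Its score was 50611 in the early control, 57844 in the early knockdown, 99060 in the late control and 1259 in the late knockdown. It was the highest Y peak in each list except the late knockdown, where it was second, and stood at or above 99.2% of every list.

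Next came a region of 780 bp at 2484275 to 2485054 in WDY, which encodes a protein with WD40 repeats. Its score was 2547 in the early control, 41824 in the early knockdown, 8404 in the late control and 2116 in the late knockdown. It was the highest Y peak of the last list and held place 4, 2 and 3 among the 54 common regions in the others, in the order given. No fold between scores of different lists can be read.

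Of the 12 strongest regions common to the 4 lists, 8 lay in protein genes. One at 652818 to 653399 in kl-2, an axonemal dynein heavy chain gene of the sperm tail, had scores of 1723 in the early control, 18986 in the early knockdown, 7885 in the late control and 995 in the late knockdown. One at 1641985 to 1642734 in Ppr-Y had scores of 3741, 7717, 8291 and 583 in that order. Both were among the 6 highest of the 54 common regions in every list. A region at 3652706 to 3653123 in CCY, a gene for a coiled-coil protein, had scores of 1437, 4037, 4015 and 448. A second WDY region at 2389053 to 2389541 had scores of 1514, 3695, 4870 and 345. These 2 regions held places from 6 to 12 of the 54 in every list. Regions at 124119 to 124904 in kl-5 and at 352646 to 353180 in kl-3, both dynein heavy chain genes, scored 995 and 676 in the early control and 6484 and 9913 in the early knockdown. In the late control they scored 2854 and 1924, and in the late knockdown 542 and 1153. The eighth lay at 3562162 to 3562740 in ORY, an occludin-related gene, with scores of 992, 3383, 1619 and 291.

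Outside genes, the other strong common regions lay at 860075 to 860898, at 3560199 to 3560616 and at 1416747 to 1417209. The first is 8994 bp from a Su(Ste) copy and scored 1749, 2570, 2918 and 314 in the order above. The second is 1129 bp from ORY, close to the ORY region above, and scored 469, 7342, 1417 and 331. The third scored 708, 2447, 1002 and 257 and is 219365 bp from Ppr-Y, in a stretch of 512.7 kb between annotated genes that held 20 regions, 5 of them common to the 4 lists. A region at 742998 to 743377, 38950 bp from ARY, was among the 3 highest Y peaks of both control lists. Its score was 3568 in the early control, 5160 in the early knockdown, 8423 in the late control and 60 in the late knockdown. Among the 54 common regions it held place 3, 9, 2 and 27, so its place was lowest in the late knockdown.

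The order of the common regions was shared in part. Of the 12 highest regions in each list, 7 were the same in every list, and 18 were among the 12 highest in at least 1 list. The low-coordinate end of kl-5, at 22556 to 23045, was singled out after its values were seen. Its score was 87 in the early control, 4336 in the early knockdown, 158 in the late control and 50 in the late knockdown. It held place 10 of the 54 in the early knockdown and places 39, 42 and 29 in the early control, the late control and the late knockdown.

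Protein genes of the Y were described from a list of 12, most of them known for roles in spermatogenesis. They span 27.8% of the Y and held 79 of the 202 regions, or 39.1%, with 24 of the 54 common regions. Of the 12 genes, 11 overlapped a region. The density in them was 7.74 regions per 100 kb, against 4.68 per 100 kb outside all annotated genes and 5.51 over the Y. It was uneven, and in genes longer than 10 kb ran from 3.22 in Ppr-Y to 22.6 in kl-5. WDY with 4.20 and kl-2 with 4.39 also lay below the 4.68 outside genes, whereas kl-3, PRY, ORY and CCY lay above it. Of the 79 regions, 26 lay in kl-5, and the density of the other listed genes together was not computed. The gene table gives neither exons nor strand, so position within a gene cannot be given.

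The 3 dynein heavy chain genes kl-5, kl-3 and kl-2 held 47 regions between them, 15 of which were common to the 4 lists. Their peaks numbered 31 in the early control, 29 in the early knockdown, 27 in the late control and 25 in the late knockdown. The gene kl-5, of 115.2 kb at 22250 to 137486, had the highest density of the 8 genes longer than 10 kb, with 26 regions or 22.6 per 100 kb. It held 18 peaks in the early control, 15 in the early knockdown, 14 in the late control and 12 in the late knockdown. Of its 26 regions, 7 were common to the 4 lists and 10 belonged to 1 list, namely 6 to the early control and 4 to the late knockdown. The gene kl-3, of 226.8 kb at 336381 to 563165, had 17 regions, or 7.50 per 100 kb, with 10, 12, 10 and 10 peaks in the order used above. The gene kl-2 had 4 regions in 91.1 kb at 573088 to 664173, of which 2 were common to the 4 lists.

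**Figure D3:**
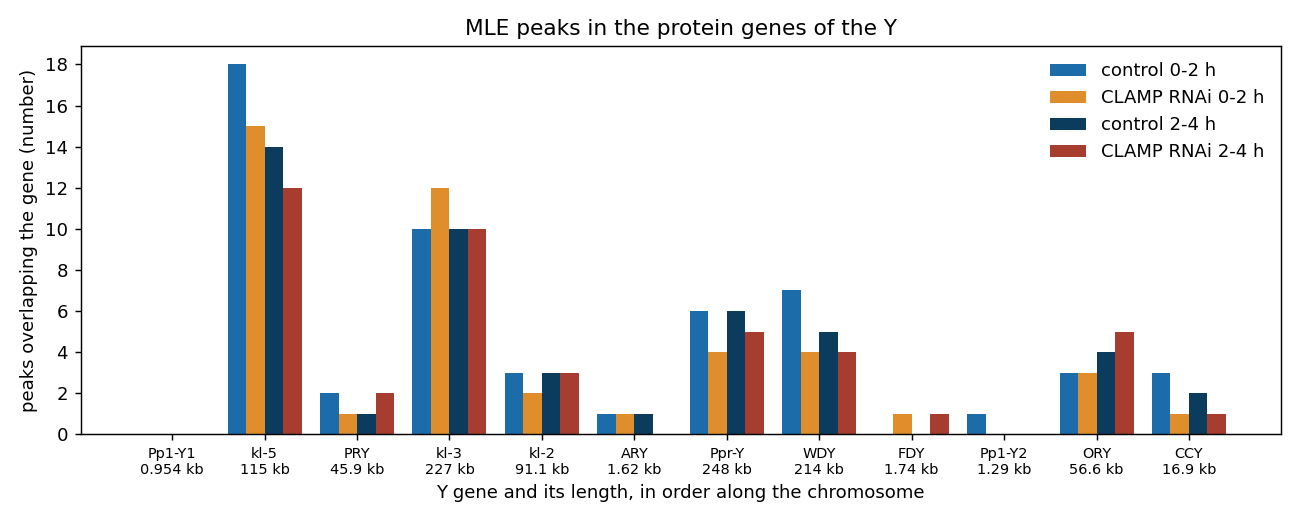
Number of MLE peaks (y axis) overlapping each of the 12 listed protein genes of the Y (x axis, with gene length in kb), 1 bar per list. The gene kl-5 has 12 to 18 peaks per list and kl-3 10 to 12, while the short genes have 0 or 1.

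Among the other long genes, Ppr-Y had 8 regions in 248.3 kb, WDY 9 in 214.4 kb, ORY 6 in 56.6 kb, PRY 3 in 45.9 kb and CCY 3 in 16.9 kb. Peak numbers in ORY were 3 in the early control, 3 in the early knockdown, 4 in the late control and 5 in the late knockdown. All 3 PRY regions were weak, with a highest score of 46. PRY is related to polycystin genes. Past the high end of CCY, a common region lay 59 bp away at 3666987 to 3667352, the last of the Y, with scores of 294 in the early control, 2132 in the early knockdown, 1469 in the late control and 229 in the late knockdown.

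The short genes, of 0.954 to 1.74 kb, overlapped 0 or 1 region each. At such lengths low counts do not mean that peaks were sparse. ARY, an aldehyde reductase gene, overlapped 1 region at 703641 to 704022 with scores of 16 in the early control, 65 in the early knockdown and 97 in the late control, and no peak in the late knockdown. FDY overlapped 1 of the 2 regions of both CLAMP RNAi lists alone, at 3023133 to 3023409, with weak scores of 20 at 0-2 h and 24 at 2-4 h. The other lay at 2156530 to 2156737 with scores of 70 and 32. Pp1-Y2, a gene for a catalytic subunit of protein phosphatase 1, overlapped 1 region of the early control alone, with a score of 65. Its relative Pp1-Y1 had no peak in it or within 1000 bp in any list.

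Over the whole annotation, 82 regions (40.6%, 33.8% to 47.7%) overlapped a gene, 11 lay within 1000 bp of one and 109 lay farther away. Genes cover 30.0% of the Y, and 39.1% (32.3% to 46.2%) of region midpoints fell in them. The gene kl-5 alone, of 115.2 kb, held 26 of the 82 regions, and the shares without it were not computed. Of 113 genes, 23 had a region in them or within 1000 bp. These were 11 of 23 protein-coding genes, 4 of 28 long non-coding RNA genes and 8 of 62 pseudogenes. The 11 were all from the list of 12 above. Gene length was not adjusted for, and it ranges widely, with 248.3 kb for Ppr-Y and 0.925 kb for the pseudogene CR45948. Some regions count for more than 1 gene, such as 2 in WDY that also lie within 1000 bp of CR45948. Regions in genes made up 44.6% in the early control, 46.4% in the early knockdown, 37.7% in the late control and 40.0% in the late knockdown. In the late control, 21 of the 122 regions lay in the first Su(Ste) block and its flanks, described below. Of the 13 there that were in no other list, 12 lay more than 1000 bp from a gene.

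Several gene families of the Y lie in blocks of many copies. Mst77Y, a family derived from the sperm chromatin gene Mst77F, has 18 copies in a block of 92.0 kb, and 0 of them had a region within 1000 bp. The block held a single region, of the late knockdown with a score of 24. Of 29 pseudogenes listed as CG12717-related, in a block of 212.9 kb, 0 had a region within 1000 bp, although 7 regions, 4 of them common to the 4 lists, lay between the copies. That is 3.29 regions per 100 kb of the block. Reads from repeated sequence may be placed on the wrong copy, and this was not tested because no genome sequence was used here.

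Regions were unevenly spread. The first 500 kb held 55 regions and the next 500 kb held 38. From there to 3500000 each 500 kb held 13 to 26. The last window, from 3500001 to 3667352, held 20 although it is shorter. The longest stretches without a region measured 241.8 kb, from 1094234 to 1336026, and 158.1 kb, from 3314709 to 3472827. The latter takes in most of the Mst77Y copies. Gaps of the assembly were not known here.

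The Su(Ste) genes encode RNAs that silence the Stellate genes of the X in the male germline through piRNAs. Of 27 copies on the Y, 24 lie in a first block at 869892 to 1040412 and 3 in a second at 2559809 to 2595311. In the first block and 20 kb to either side, the early control had 7 peaks, the early knockdown 4, the late control 21 and the late knockdown 5. The late control stood apart from the other lists there. The stretch and its flanks were chosen after the peaks were seen, so these numbers are a description.

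Of the 24 regions of this stretch, 21 (87.5%) had a late control peak and 13 (54.2%) had no other peak. On the remaining Y, 101 of 178 regions (56.7%) had a late control peak and 7 (3.93%) had no other, and over all chromosomes 8.96% of regions were of the late control alone. The 13 regions lay between 854608 and 957948, within 103.3 kb, and not in the part of the block beyond. Their scores ran from 31 to 432, with a median score percentile of 64.1, against 18.0 for the 7 regions of the late control alone elsewhere on the Y. The highest were at 883764 to 884321 with a score of 432, at 912678 to 913390 with 369 and at 956820 to 957345 with 247, all above the 80th percentile of the list. Of the 13, 1 overlapped a Su(Ste) copy and the other 12 lay more than 1000 bp from one. The second block held 1 region, at 2573303 to 2573680, with scores of 76 in the early control, 17 in the early knockdown, 69 in the late control and 32 in the late knockdown.

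**Figure D4:**
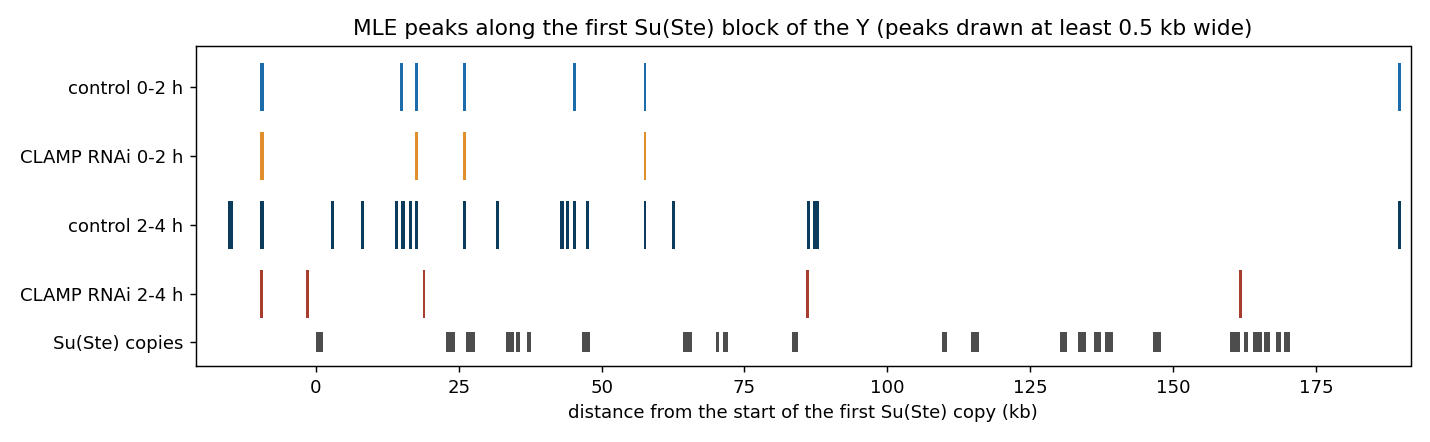
Peaks of each list (rows) along the first Su(Ste) block, by distance in kb from the start of its first copy (x axis), with the copies as grey boxes below. The late control has 21 peaks, most of them left of 90 kb, where the other lists have 7 or fewer over the whole stretch.

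Whether Y sites were also listed with RNAi against maternal CLAMP was addressed by looking up the control peaks. At 0-2 h, 78 of 122 control Y peaks, or 63.9% (54.7% to 72.4%), had a CLAMP RNAi peak, against 58.1% over all chromosomes. The Y lay 5.82 points above the other chromosomes (-3.03 to 13.8), an interval that includes 0, and 11.1 points (2.24 to 19.4) where an overlap of at least 50% was required. At 2-4 h, 68 of 123, or 55.3% (46.1% to 64.3%), had a CLAMP RNAi peak, against 40.7% over all chromosomes. The Y was 14.7 points above the other chromosomes (5.82 to 23.2) and 6.60 points above the X alone (-2.31 to 15.2). With lists cut to the shortest, the difference from the other chromosomes was 9.48 points (-0.488 to 18.5), which includes 0. Without the Su(Ste) stretch the share was 64.7%, 24.1 points above the other chromosomes. That stretch was chosen after its peaks were seen, and 2 of its 21 late control peaks were found. Leaving it out thus had to raise the share, and nothing was left out elsewhere, so no conclusion is drawn from the rise. Among peaks with a score of at least 50 in both lists the share on the Y was 33.0%, 12.1 points above the other chromosomes (3.49 to 21.9).

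Part of the excess at 2-4 h went with score. Among peaks of the other chromosomes spread over the same 5 score classes as the Y peaks, which tied scores made unequal in size, 50.4% had a late knockdown peak, which left 4.92 points. At 0-2 h the same step turned the difference to -4.03 points, since 68.0% of comparable peaks were found. These differences have no interval of their own, and 50.4% and 68.0% lie within the exact intervals of the Y shares. In the highest class, 40 of 42 Y peaks of the early control and 30 of 39 of the late control were found in the CLAMP RNAi list, or 95.2% and 76.9%, against 98.9% and 84.5% elsewhere.

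Between ages, 87 of 122 early control peaks on the Y, or 71.3% (62.4% to 79.1%), had a late control peak, against 64.8% over all chromosomes. At matched score classes the share elsewhere was 73.6%, which turned the difference of the Y to -2.25 points and lies within the exact interval of the Y share. In the CLAMP RNAi embryos 62 of 97, or 63.9% (53.5% to 73.4%), were found at 2-4 h, against 42.5%. This was 21.5 points above the other chromosomes (11.5 to 30.3), and 10.1 points remained at matched score classes. There the share elsewhere was 53.8%, just inside the exact interval of the Y share. With a score of at least 50 in both lists the share on the Y was 42.7%, 18.7 points above the other chromosomes (8.10 to 30.0). Looked up the other way, 87 of 123 late control peaks, or 70.7% (61.9% to 78.6%), had an early control peak, against 74% over all chromosomes and 82.1% at matched score classes. Without the Su(Ste) stretch, chosen after its peaks were seen, this share was 78.4%, a rise that the choice fixed in advance. In that stretch it was 33.3%, or 7 of 21 peaks.

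**Figure D5:**
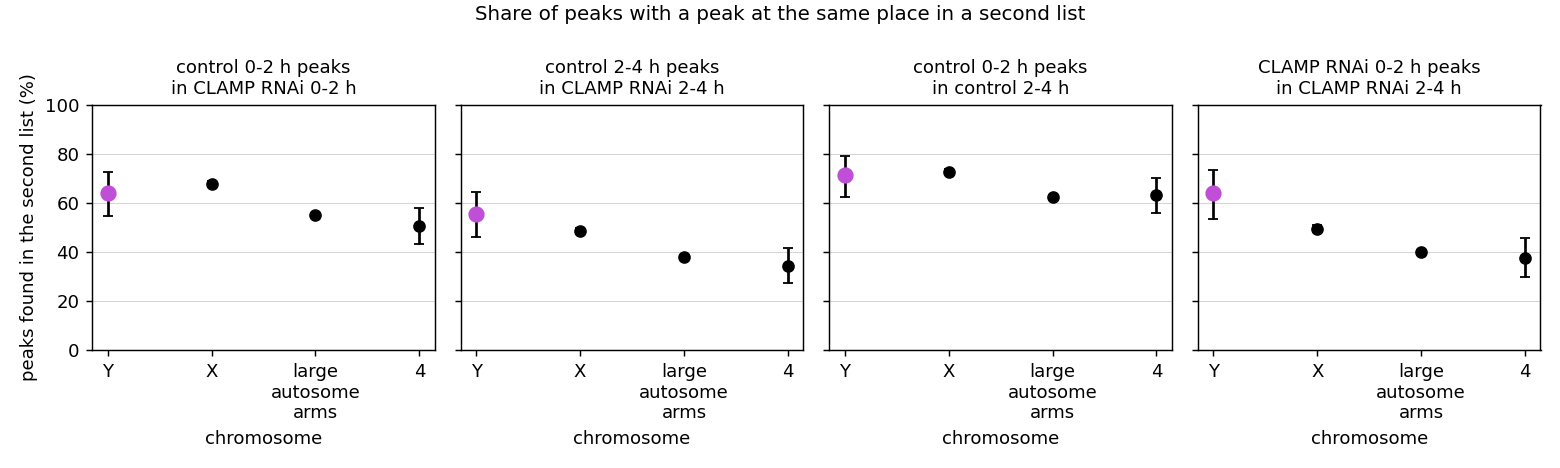
Share of the peaks of one list that have a peak in a second list (y axis, percent, with exact 95% intervals) on the Y, the X, the large autosome arms and chromosome 4 (x axis), for 4 pairs of lists. The Y lies near the X in the pairs of the early control (63.9% and 71.3%) and above the arms and chromosome 4 in the pairs that end in the late knockdown (55.3% and 63.9%).

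Knockdown peaks of the Y were looked up in the same way. At 0-2 h, 77 of 97, or 79.4%, had a control peak, against 74.4% over all chromosomes, and at 2-4 h 68 of 110, or 61.8%, against 65%. At matched score classes the shares elsewhere were 82.3% and 69.0%. Both lie within the exact intervals of the Y shares (70.0% to 86.9% and 52.1% to 70.9%), so the Y was not set apart from them. The Y share at 2-4 h was 11.9 points below the X (interval of the difference -21.3 to -3.26), where 73.7% were found. Of the late knockdown peaks, 62 of 110, or 56.4%, had an early knockdown peak, against 60.5%, and of the late control peaks 80 of 123, or 65.0%, had one, against 68.3%. At matched score classes the shares elsewhere were 64.8%, within the exact interval of the Y share (46.6% to 65.8%), and 78.2%, above it (55.9% to 73.4%).

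Regions held by both control lists numbered 86 on the Y. Of these, 72, or 83.7% (74.2% to 90.8%), also had an early knockdown peak, and 56, or 65.1% (54.1% to 75.1%), a late knockdown peak. On the other chromosomes the shares were 81.3% and 50.0%, so the Y was 2.43 points (-6.80 to 8.78) and 15.2 points (4.62 to 24.4) above them. These shares were not matched for score, and the X was not set apart from the other chromosomes. For all late control peaks looked up in the late knockdown, the Y was 6.60 points above the X alone (-2.31 to 15.2). There, matching for score left 4.92 points above the other chromosomes.

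The 12 regions of both control lists alone had mean score percentiles from 26.5 to 81.2. The strongest lay at 1608557 to 1608932, 27642 bp from Ppr-Y, with scores of 206 in the early control and 190 in the late control. Next was one at 1728634 to 1729348 in Ppr-Y with 170 and 114. A larger group, 18 regions or 8.91% against 15.1% of all regions, was listed in every group except the late knockdown. This share was 9.55% on chromosome 4, near that of the Y, and 16.8% on the X. The strongest of these 18 Y regions lay at 63658 to 64390 in kl-5, with scores of 253 in the early control, 408 in the early knockdown and 729 in the late control. The next lay at 355962 to 356340 in kl-3, with 156, 126 and 622.

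Regions of both lists of 1 age alone were few, 3 at 0-2 h and 8 at 2-4 h. Of both 0-2 h lists alone, the strongest were at 2279006 to 2279205 in WDY, with scores of 60 in control and 23 in CLAMP RNAi, and at 94076 to 94451 in kl-5, with 33 and 29. Of both 2-4 h lists alone, they were at 955766 to 956402 in the Su(Ste) block, with 89 and 32, and at 3566986 to 3567352 in ORY, with 84 and 35.

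Among regions of a single list, the strongest of the early control were at 35721 to 36099 in kl-5 and at 1798875 to 1799218 in Ppr-Y, both with a score of 87. That of the early knockdown was at 2488548 to 2488954, 771 bp from WDY and close to the strong WDY region, with a score of 344. In the late knockdown it was at 2905908 to 2906288, 116001 bp from FDY, with a score of 126, at or above 92.1% of that list. For the late control it was the region with a score of 432 near Su(Ste) described above.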

How the data were processed

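Per the submitters' processing notes, the tools were FastQC, Trim Galore, BWA, Bowtie2, SAMtools, Picard 2.20.2 and MACS2, with build dm6. Which aligner made these files, the peak calling settings, any control library and any pooling of the 2 replicates named in the design are not given in the sources used here. Each deposited list has 1 score per peak, the authors' whole number, which is not on a common scale between lists.

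Starts were made 1-based, repeated intervals were collapsed to the highest score and overlapping peaks were merged (Python 3.11.15, SciPy 1.17.1). The merging and lookup code was tested on simulated data. Genes came from a RefSeq table of Release 6, with 113 genes on the placed Y. A further 10 genes, whose coordinates restart in the table, were left out. No genome sequence was used here, so the planned counts of repeats and of matches elsewhere were not made. Groups have 1 list each, so no p-value is given. Named regions are the 12 strongest common to all lists, the 3 highest of each list and the strongest of each genotype, age or single-list pattern. Members and gene lists were chosen with earlier results of these data known.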

Additional observations from a re-analysis of the deposited data

Results flagged for a closer look

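For 3 measures of the Y peaks, the knockdown minus control difference had opposite signs at the 2 ages. Whether the ages differ was not tested, since each group has a single list.

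The Y share of the list was 0.430% in the early control and 0.429% in the early knockdown, a difference of -0.00059 points (Newcombe 95% interval -0.114 to 0.117). It was 0.489% in the late control and 0.688% in the late knockdown, a difference of 0.198 points (0.0485 to 0.360), although the number of Y peaks was lower by 13 in the latter.

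The median width of Y peaks was 370 bp in the early control, 376 bp in the early knockdown, 377 bp in the late control and 240 bp in the late knockdown. The differences were 6.0 bp and -137.0 bp. On the other chromosomes the medians were 364, 366, 375 and 245 bp in the same order, so the narrower late knockdown peaks were not particular to the Y.

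Of the Y peaks, those of 200 bp, the smallest width, were 15.6% and 15.5% at 0-2 h, and 9.76% and 35.5% at 2-4 h. The differences were -0.110 and 25.7 points. On the other chromosomes the shares were 21.9% and 19.1% at 0-2 h, and 12.4% and 36.6% at 2-4 h, so the rise at 2-4 h was not particular to the Y.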

How the results depend on the processing

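Of 114 values recomputed under alternatives, 92 stayed within the stated limits, which are 1.5 times a count or the 95% interval of a share or difference, and 22 did not. A score of at least 50 left 36 Y peaks in the late knockdown and 79 in the early control, with Y shares of 0.560% in the early control, 0.567% in the early knockdown, 0.620% in the late control and 0.918% in the late knockdown. It left 126 regions, 30 of them common to the 4 lists, 6 of both control lists alone, 0 of both CLAMP RNAi lists alone and 3 of the late knockdown alone. The share found in the late knockdown became 33.0% for the late control peaks and 42.7% for the early knockdown peaks, still 12.1 and 18.7 points above other chromosomes. The same score is a higher percentile in the late knockdown than in the other lists. Without peaks of 200 bp, the late knockdown had 71 Y peaks and 16 regions of its own, and both CLAMP RNAi lists alone had 0. With lists cut to the shortest, the Y share was 0.531% in the early control and 0.606% in the late control, and both control lists alone held 4 regions. The late knockdown then had more Y peaks than the late control, 110 against 97, and the late control difference from other chromosomes was 9.48 points (-0.488 to 18.5). Without the Su(Ste) stretch, chosen after the data were seen, 64.7% of the late control Y peaks were found in the late knockdown, 24.1 points above other chromosomes, and the late control alone held 7 regions. The choice of that stretch fixed the direction of both changes in advance. Scores in different lists are not comparable, and depth is unknown. For the other moves the cause was not tested. Counts of repeats and of matches elsewhere in the genome were not run. No paired analysis was possible because each group has 1 list.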
